A study of Mus musculus with 12 samples.

Results

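The earliest berberine time of the series was compared with its vehicle control: 3 arrays of 3T3-L1 adipocytes given 5 µM berberine for 3 h and 3 arrays of the same cells given DMSO, which are 6 of the 12 arrays. The other 6 arrays, of cells given berberine for 6 or 12 h, entered the shared estimate of the spread and are used here only to show whether the level at 3 h was kept. 3T3-L1 is a mouse embryo fibroblast line that turns into fat-storing cells when induced. To make adipocytes, all groups received insulin (5 µg/ml), the glucocorticoid dexamethasone (1 µM) and the phosphodiesterase inhibitor IBMX (0.5 mM) over 48 h. They were then fed serum and insulin, used at days 8 to 10, and held in serum-free medium with 0.2% bovine serum albumin for 12 h before treatment. How long the DMSO cultures were kept is not in the labels, so the drug and the time in culture cannot be told apart. The cells are 1 line, and nothing says whether the 3 replicates of a group were separate cultures, so a p-value here speaks for the scatter of these arrays alone, which could be technical. The question was which transcripts had changed by 3 h.

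Berberine is a plant isoquinoline alkaloid that is known to slow respiration at mitochondrial complex I and to activate AMP-activated kinase (AMPK). Several signalling routes answer such a stress. In the integrated stress response, kinases that sense amino acid shortage, unfolded proteins or mitochondrial trouble phosphorylate the initiation factor eIF2alpha; most translation slows, while the transcription factor ATF4 is made and switches on genes of amino acid supply and, with its partner CHOP (gene Ddit3), of cell death. Hypoxia-inducible factor (HIF) is destroyed in the presence of oxygen by prolyl hydroxylases and, when stable, drives genes of glucose uptake and glycolysis.

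Each array measures 3' ends of transcripts with 25-base probes gathered into probe sets, and the values are log2 signals. Between arrays, correlations over the kept probe sets were 0.963 to 0.968 within the groups and 0.961 to 0.966 between them. Between 47.9% and 50.7% of probe sets on the 6 arrays reached the detection threshold, a log2 signal of 5.77. The brightest spike-in control read 14.78 to 15.11 in DMSO and 15.07 to 15.10 at 3 h. A fainter one, BioB, was higher at 3 h (10.31 to 10.46) than in DMSO (10.1 to 10.31), the ranges meeting only at their ends. All 13 mature adipocyte markers that the annotation names were above the threshold on all 6 arrays, and their summed linear signal was 189447 to 237065 in DMSO and 212129 to 238223 at 3 h. Of 10 macrophage markers, 4 (Cd14, Csf1r, Cd68 and Lyz2) were above the threshold on all 6 arrays and 5 were under it, among them Ptprc and Itgam. Their summed signal was 889 to 1057 in DMSO and 1086 to 1131 at 3 h. Of 8 endothelial markers, 7 were under it. Of the 10 fibroblast markers named, 9 were above it. Only 4 macrophage, 1 endothelial and 9 fibroblast markers were bright enough to be tested, and none of those rose or fell at 3 h.

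By 3 h, 231 of the 12136 genes tested (1.90%) had passed an adjusted p of 0.05 in limma: 132 higher than in DMSO (1.09% of the genes) and 99 lower (0.816%). These shares are the background for every list count below. The lists were chosen with earlier results of these data known, so a count above these shares is no independent test. The changes were small. Of the called genes, 6 rose and 6 fell by at least 1 on the log2 scale, 86 moved by 0.5 to 1 and 133 by less, with a median size of 0.46 against 0.13 over all genes tested, whose median change was 0.02. In all 231 the 3 berberine arrays lay wholly to one side of the 3 DMSO arrays. Such a gap was found in 19.0% of the genes tested (10.5% higher, 8.56% lower). With 1 array left out, 94 of the 231 kept their call in all 6 such fits, and the count fell to 117 without DMSO replicate 1, 126 without berberine 3 h replicate 2 and 137 without berberine 3 h replicate 1. It was 93 when limma's estimate of the spread did not follow the signal level ("without the intensity trend" below), and a gene whose call ended there is named as such.

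**Figure D1:**
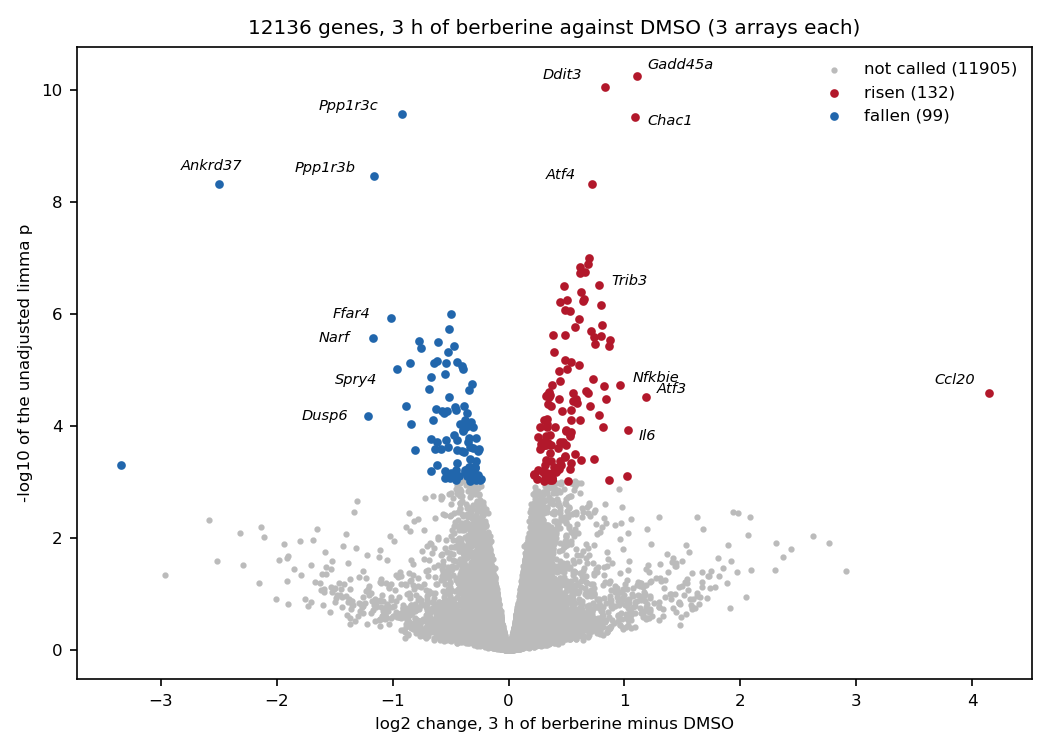
Change of each of the 12136 genes at 3 h of berberine (horizontal axis, log2 change against DMSO) against the strength of the evidence (vertical axis, -log10 of the unadjusted limma p), 3 arrays a group; red points rose, blue points fell and grey points were not called. Gadd45a, Ddit3 and Chac1 stand highest among the 132 that rose, and Ppp1r3c, Ppp1r3b and Ankrd37 among the 99 that fell.

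Regulators of the integrated stress response rose together: 6 of 15 tested members rose and 1 fell, against 1.09% and 0.816% of all genes. The median change of the 15 was 0.30 on the log2 scale, against 0.02 over all genes. ATF4 and its partners are known to bind a composite element of the letters TGATGNAA. This element, on either strand, was found in 3 of 9 RefSeq promoters of the 7 called members (33.3%), in 4.79% of those of all genes that rose at 3 h, in 3.45% of the 32851 promoters of the table and in 1.90% of those of the genes tested, where a promoter is the 250 bases before a start site (GRCm38.p6). The list was made of known genes of this response, its uncalled members got no share of their own, and the 7 include the 1 that fell. The share is therefore no test of what berberine did. A match is a description of the sequence and shows no binding. The 3 promoters that hold it follow 5′ to 3′ along the gene's strand, with the element in capitals, because their genes are among those whose values come next.
Chac1, chr2:119350992-119351241, + strand: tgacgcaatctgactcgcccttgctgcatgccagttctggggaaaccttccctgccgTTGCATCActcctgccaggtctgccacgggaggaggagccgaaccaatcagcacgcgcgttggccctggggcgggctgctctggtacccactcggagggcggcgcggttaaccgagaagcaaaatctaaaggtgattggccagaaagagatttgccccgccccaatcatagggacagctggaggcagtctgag
Atf3, chr1:191183334-191183583, - strand: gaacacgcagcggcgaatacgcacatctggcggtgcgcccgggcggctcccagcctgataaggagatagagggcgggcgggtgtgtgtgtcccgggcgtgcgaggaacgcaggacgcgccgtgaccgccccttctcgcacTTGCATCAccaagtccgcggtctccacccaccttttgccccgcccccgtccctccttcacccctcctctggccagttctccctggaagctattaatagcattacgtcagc
Jdp2, chr12:85599166-85599415, + strand, 1 of 3 start sites: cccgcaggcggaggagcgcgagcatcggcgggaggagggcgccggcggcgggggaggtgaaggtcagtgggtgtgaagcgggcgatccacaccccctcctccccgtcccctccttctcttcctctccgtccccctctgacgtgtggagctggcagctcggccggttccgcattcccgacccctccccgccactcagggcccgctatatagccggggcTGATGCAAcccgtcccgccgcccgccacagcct

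Atf4, the transcription factor at the centre of this response, gave log2 signals of 12.46, 12.41 and 12.38 in DMSO and 13.19, 13.24 and 12.98 at 3 h. Its transcript had thus risen on every berberine array, by 0.72 ± 0.067 (SE) on the log2 scale or 1.65-fold (n = 3 arrays a group; limma adjusted p = 8.46e-06). Ddit3, which encodes CHOP, read 11.80, 11.81 and 11.78 in DMSO and 12.70, 12.57 and 12.60 at 3 h, the DMSO arrays lying within a few hundredths of each other. The change was 0.83 ± 0.06 (1.78-fold, limma adjusted p = 5.56e-07). When all kept probe sets of a gene were averaged, Ddit3 was no longer called (adjusted p = 0.0806); its other probe set was dim in DMSO.

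Trib3, a pseudokinase induced by ATF4 and CHOP that binds AKT, read 10.55, 10.30 and 10.03 in DMSO and 11.06, 11.09 and 11.08 at 3 h. The DMSO arrays were the more scattered, and the gap between groups remained, with a change of 0.78 ± 0.10 (1.72-fold, limma adjusted p = 0.00028). Chac1, an enzyme that breaks down glutathione, read 9.95, 9.80 and 9.78 in DMSO and 10.96, 10.92 and 10.93 at 3 h. It rose by 1.09 ± 0.085 (2.13-fold, limma adjusted p = 9.37e-07), with the 3 berberine arrays almost level.

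Both AP-1 family repressors on the list moved up. Atf3 was dim in DMSO, at 6.54, 6.63 and 5.77, and read 7.46, 7.81 and 7.23 at 3 h, a change of 1.19 ± 0.21 (limma adjusted p = 0.00485); its call ended with only the 6 arrays fitted (adjusted p = 0.0583) and without the intensity trend (0.0643). Jdp2, a bZIP repressor that pairs with JUN, read 10.45, 10.54 and 10.43 in DMSO and 10.86, 10.90 and 10.76 at 3 h, a smaller change of 0.37 ± 0.068 (limma adjusted p = 0.00621).

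Ddit4, which encodes the mTORC1 inhibitor REDD1 and is a target of both ATF4 and HIF, was the member that fell. It read 12.37, 11.62 and 12.21 in DMSO, with replicate 2 well below the other arrays, and 11.22, 11.29 and 11.15 at 3 h. The change was -0.85 ± 0.13 (limma adjusted p = 0.00185), and the call ended without the intensity trend (adjusted p = 0.0663). Sesn2, a leucine sensor and further ATF4 target, read 7.85, 7.49 and 8.19 in DMSO and 8.61, 7.90 and 8.54 at 3 h, so the groups overlapped and it was not called (0.51 ± 0.25, limma adjusted p = 0.39).

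Lists of genes of amino acid supply, many of them known ATF4 targets, held at most 1 called member each. Such counts are too small to be set against the 1.90% called of all genes. Of 14 amino acid transporter genes tested 1 rose, of 13 genes of serine, asparagine and one-carbon metabolism 1 rose, and of 19 cytosolic aminoacyl-tRNA synthetases 0 were called in either direction. The transporter gene was Slc3a2, the heavy chain shared by several amino acid exchangers, at 10.69, 10.49 and 10.33 in DMSO and 11.12, 11.26 and 11.26 at 3 h. Its change was 0.71 ± 0.10 (1.64-fold, limma adjusted p = 0.000843). Asns, asparagine synthetase, read 12.68, 12.32 and 12.63 in DMSO and 12.56, 12.79 and 12.58 at 3 h; the groups overlapped and the change of 0.10 ± 0.084 was not called (limma adjusted p = 0.669).

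Of 21 endoplasmic reticulum chaperones and sensors tested, 1 rose and 1 fell, against 1.09% and 0.816% of all genes. Herpud1, which helps to clear misfolded proteins from the endoplasmic reticulum, read 10.47, 10.71 and 10.60 in DMSO and 11.31, 11.14 and 11.17 at 3 h, a rise of 0.62 ± 0.074 (limma adjusted p = 0.000189). Dnajb9, a co-chaperone of the same compartment, went the other way, from 13.04, 13.07 and 13.11 to 12.79, 12.86 and 12.78, a change of -0.26 ± 0.058 (limma adjusted p = 0.0219). The Dnajb9 call was kept in 1 of 6 fits with an array left out, at an adjusted p of up to 0.0912, and ended without the intensity trend (0.0962).

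The GADD45 genes, small stress sensors that bind p38-activating kinases and PCNA, split. Gadd45a had the smallest p of all genes at 3 h, reading 10.72, 10.55 and 10.42 in DMSO and 11.68, 11.79 and 11.56 with berberine (1.11 ± 0.078, limma adjusted p = 5.56e-07). Gadd45b also rose, from 8.50, 8.29 and 8.27 to 9.31, 9.06 and 9.11, by 0.81 ± 0.11 (1.75-fold, limma adjusted p = 0.000735). Gadd45g fell on every array, from 9.78, 9.81 and 10.28 to 9.26, 9.36 and 9.30, a change of -0.65 ± 0.13 (1.57-fold lower, limma adjusted p = 0.00927).

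The Gadd45b call ended when its probe sets were averaged (adjusted p = 0.211), 1 of its 2 other probe sets having a change of the opposite sign near 0 (-0.04), and the Gadd45g call ended without the intensity trend (0.0709). With the p53 targets among them, 3 of 18 tested members of this list rose and 1 fell, against 1.09% and 0.816% of all genes. The other 14 were not called. The third that rose was Mdm2, the ubiquitin ligase of p53, by 0.28 ± 0.059 (limma adjusted p = 0.0183). Its call was kept in 2 of 6 fits with an array left out (adjusted p up to 0.111) and ended after median centring (0.106) and without the intensity trend (0.0962).

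Some inflammatory transcripts were also higher. Of 19 cytokines, chemokines and effectors tested, 6 rose and 0 fell, against 1.09% and 0.816% of all genes. The other 13 were not called, and the lowest change on the list was -0.46. The median change of the 19 was 0.25, against 0.02 over all genes. Ccl2, the monocyte chemoattractant secreted by fat cells, read 11.30, 11.58 and 11.15 in DMSO and 12.15, 12.13 and 12.16 at 3 h. The berberine arrays were within a few hundredths of each other, and the change was 0.80 ± 0.12 (1.74-fold, limma adjusted p = 0.000922). Its neighbour and relative Ccl7 went from 10.40, 10.71 and 9.98 to 11.04, 11.07 and 11.10, a change of 0.71 ± 0.13 (limma adjusted p = 0.00621). Cxcl1, a neutrophil chemoattractant, read 11.46, 11.93 and 11.53 in DMSO and 12.29, 12.58 and 12.66 at 3 h, a change of 0.87 ± 0.13 (limma adjusted p = 0.00102).

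The other 3 were dimmer or less stable. Il6, the interleukin-6 gene, was near the threshold in DMSO at 6.10, 6.29 and 5.88 and read 6.95, 7.18 and 7.25 at 3 h (1.03 ± 0.21, limma adjusted p = 0.0122); the call ended without berberine 3 h replicate 2 (adjusted p = 0.0593), without its replicate 3 (0.0609) and with only the 6 arrays fitted (0.0799). Ccl20, a ligand of CCR6, was under the threshold on all 3 DMSO arrays (2.73, 2.91 and 1.40) and above it at 3 h (6.27, 6.37 and 6.82). With dim values raised to the threshold its level at 3 h was at least 1.64-fold higher, and that contrast was not called (adjusted p = 0.107), while the contrast of the values as deposited was (0.00441).

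Cxcl5 rose by 0.43 ± 0.094 (limma adjusted p = 0.0204) and kept its call in 2 of 6 fits with an array left out, at an adjusted p of up to 0.113; it ended without the intensity trend (0.158). The count of 6 risen members was 4 without berberine 3 h replicate 2 and 8 without DMSO replicate 2. Without the intensity trend it was 3, with adjusted p = 0.0531 for Cxcl1 and 0.0962 for Ccl7. The summed macrophage signal was also higher at 3 h (given above). Its markers Ptprc and Itgam were under the threshold on all 6 arrays, and Cd14, Csf1r, Cd68 and Lyz2 were above it. Cd14 (8.94 to 9.28 in DMSO, 9.31 to 9.36 at 3 h) and Csf1r (6.99 to 7.16, 7.397 to 7.505) were higher without overlap and not called. For Cd68 and Lyz2 the groups overlapped. The labels name no cells but 3T3-L1 adipocytes, and whether these markers speak for macrophages was not tested.

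Among 20 NF-kB subunits, inhibitors and receptors tested, 4 rose and 0 fell, against 1.09% and 0.816% of all genes. Nfkbie, an inhibitor of NF-kB that NF-kB itself induces, read 8.48, 8.85 and 8.07 in DMSO and 9.40, 9.59 and 9.29 at 3 h (0.96 ± 0.16, limma adjusted p = 0.00356). Tlr2, a receptor for bacterial lipoproteins, went from 9.36, 9.56 and 8.95 to 10.06, 10.09 and 10.31, with DMSO replicate 3 the lowest (0.86 ± 0.13, limma adjusted p = 0.00114). Birc3, an inhibitor of apoptosis that acts in NF-kB signalling, read 9.60, 9.88 and 9.62 in DMSO and 10.26, 10.25 and 10.22 at 3 h (0.54 ± 0.11, limma adjusted p = 0.0131).

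Of these 4, Tlr2 kept its call with any single array left out and without the intensity trend. The Nfkbie call ended without the trend (adjusted p = 0.0583) and with probe sets averaged (0.14). The Birc3 call ended without DMSO replicate 1 (0.0828) and without berberine 3 h replicate 1 (0.0579) or 2 (0.0577), and also without the trend (0.0962). The fourth, Tlr4, the lipopolysaccharide receptor, rose by 0.42 ± 0.10 (limma adjusted p = 0.0371) and kept its call in 2 of 6 fits with an array left out (adjusted p up to 0.175), and lost it without the trend (0.108). Without DMSO replicate 1 or berberine 3 h replicate 1 the count of risen members was 2, and without the intensity trend 1.

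**Figure D2:**
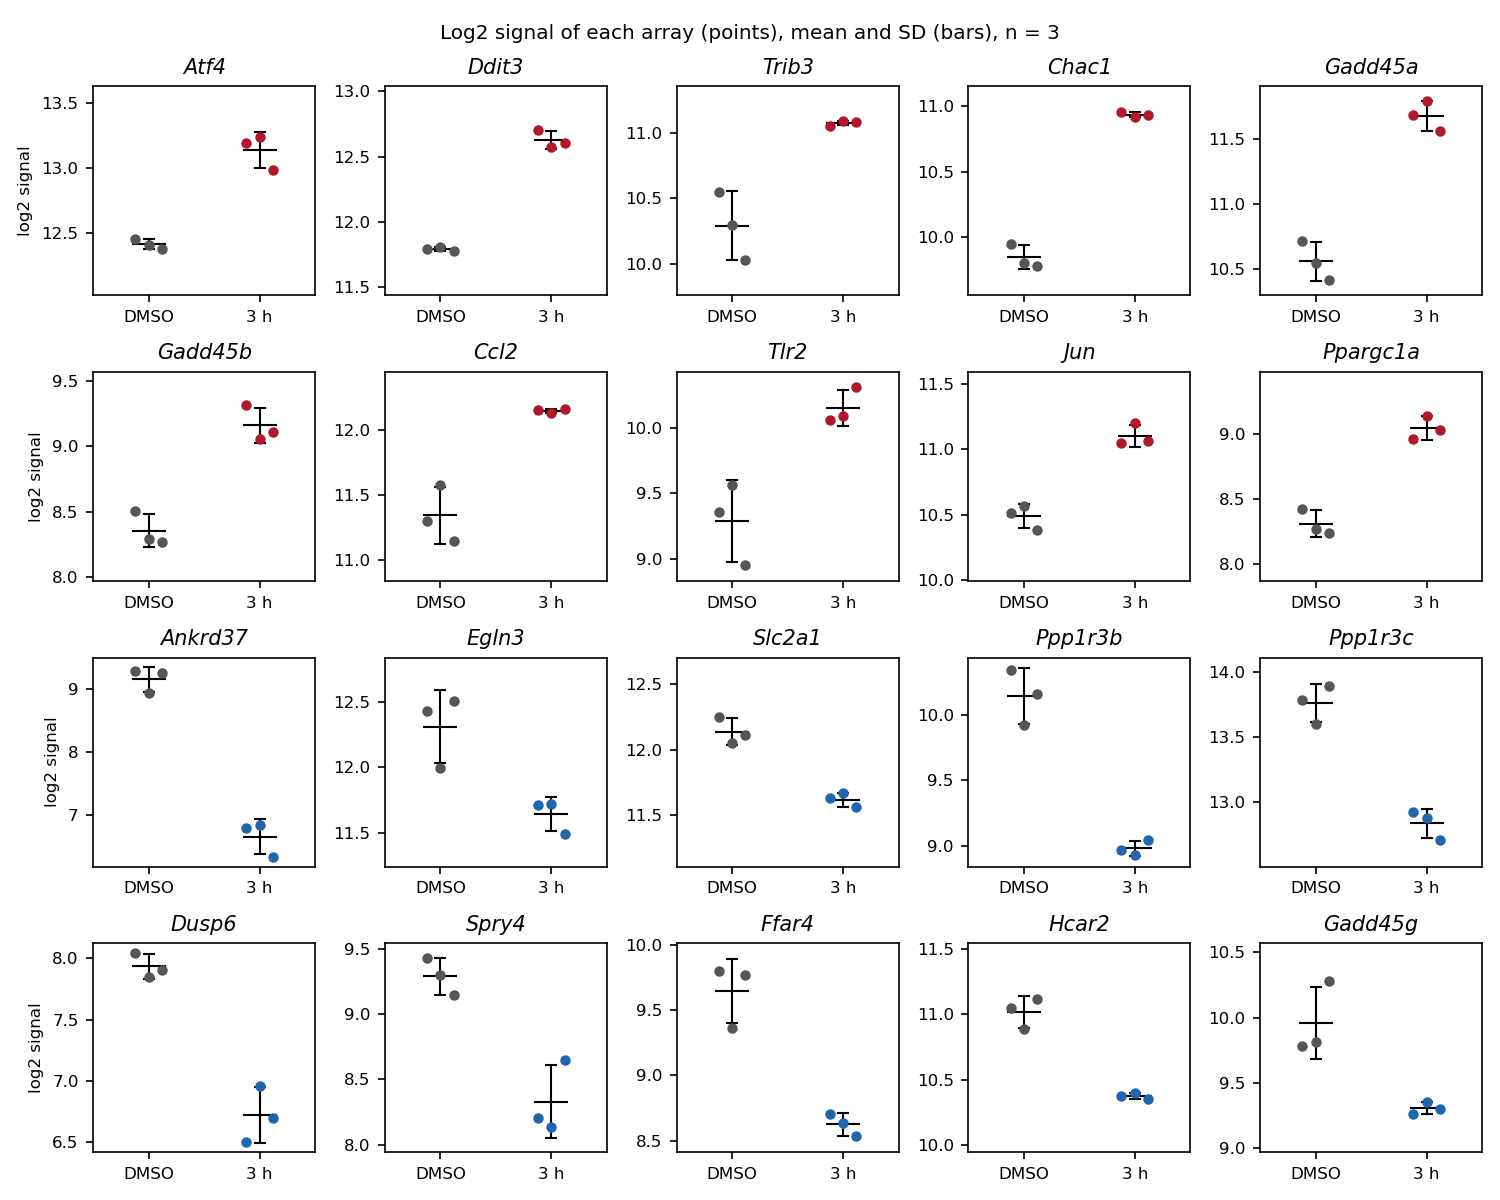
Log2 signal (vertical axes) of 20 genes on each of the 3 DMSO arrays (grey) and the 3 arrays of 3 h of berberine (red where higher, blue where lower), with the mean and SD as bars. In every panel the 3 h arrays lie apart from the DMSO arrays, as in Atf4, at 13.19, 13.24 and 12.98 against 12.46, 12.41 and 12.38.

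Flcn encodes folliculin, which with its partners FNIP1 and FNIP2 acts on the RAG GTPases at the lysosome and so on mTORC1 and the transcription factors TFEB and TFE3. It read 8.70, 8.97 and 8.65 in DMSO and 9.54, 9.35 and 9.95 at 3 h, a change of 0.84 ± 0.15 (1.79-fold, limma adjusted p = 0.00506; 0.0733 without the intensity trend). Of 14 tested genes of this group 3 rose and 0 fell, against 1.09% and 0.816% of all genes. The other two were Fnip2 (0.38 ± 0.091, limma adjusted p = 0.0418), whose call was kept in 0 of 6 fits with an array left out (adjusted p up to 0.189) and ended without the trend (0.151), and the GTPase gene Rragc (0.25 ± 0.06, limma adjusted p = 0.0391), whose call was kept in 1 of 6 (up to 0.206) and ended without the trend (0.142). Only Flcn of the 3 was thus stable to the choice of arrays. Tfeb read 7.67, 7.70 and 7.10 in DMSO and 7.53, 7.36 and 6.38 at 3 h and was not called (limma adjusted p = 0.685).

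Among immediate early genes, which respond to signals without new protein synthesis, 3 of 20 rose and 0 fell, against 1.09% and 0.816% of all genes. The 3 were Atf3, given above, Jun and Nr4a1. Jun, a subunit of AP-1, read 10.52, 10.57 and 10.39 in DMSO and 11.05, 11.20 and 11.06 at 3 h, a change of 0.61 ± 0.072 (1.53-fold, limma adjusted p = 0.000178). Nr4a1, an orphan nuclear receptor, read 9.19, 9.08 and 8.90 and 9.65, 9.75 and 9.83, a change of 0.68 ± 0.12 (limma adjusted p = 0.00441; 0.0583 without the intensity trend). Fos, Egr1 and Myc, which growth factors induce, had negative changes and were not called. Fos read 7.90, 7.35 and 7.34 in DMSO and 6.90, 6.98 and 6.70 at 3 h (-0.67 ± 0.24, limma adjusted p = 0.196).

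Egr1 read 10.19, 9.66 and 10.15 in DMSO and 9.72, 9.34 and 9.66 at 3 h (-0.43 ± 0.14, limma adjusted p = 0.135), and without DMSO replicate 2, its lowest DMSO array, it would have been called (0.0174). Myc read 9.95, 10.21 and 10.15 in DMSO and 9.78, 9.78 and 9.91 at 3 h (-0.28 ± 0.091, limma adjusted p = 0.144). The Fos and Myc groups did not overlap, and those of Egr1 did.

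Several other transcription regulators rose early. Klf11, a Krüppel-like factor known in TGF-beta and glucose control, read 8.77, 8.44 and 8.55 in DMSO and 9.39, 9.36 and 9.41 at 3 h (0.80 ± 0.11, limma adjusted p = 0.000422). Ets2, a factor activated by ERK phosphorylation, read 10.23, 10.21 and 10.34 in DMSO and 11.06, 10.90 and 10.90 at 3 h (0.69 ± 0.079, limma adjusted p = 0.00015). Ppargc1a, the coactivator PGC-1alpha that drives mitochondrial biogenesis, read 8.43, 8.27 and 8.24 in DMSO and 8.96, 9.14 and 9.03 at 3 h. Its change was 0.73 ± 0.12 (1.66-fold, limma adjusted p = 0.00299). The other kept probe sets of Ppargc1a changed by 0.37 to 0.61 and were not called (limma adjusted p over named probe sets 0.178 to 0.411). With probe sets averaged the call was kept narrowly (limma adjusted p = 0.0487). Ppargc1a was the only called member of 17 tested genes of PGC-1 and mitochondrial biogenesis, against 1.90% called of all genes.

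Nr1d2, the clock repressor REV-ERBbeta, rose from 10.77, 10.88 and 10.87 to 11.37, 11.28 and 11.29 (0.47 ± 0.059, limma adjusted p = 0.00028). Ifrd1, a stress-induced transcriptional coregulator, rose from 12.02, 11.83 and 11.90 to 12.31, 12.48 and 12.44 (0.49 ± 0.066, limma adjusted p = 0.000485). All of these 5 kept their calls in each of the 6 fits with an array left out.

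The TGF-beta and BMP list was split, with 2 of 21 tested members risen and 2 fallen, against 1.09% and 0.816% of all genes. Id1, a BMP target that blocks basic helix-loop-helix factors, fell from 11.40, 11.35 and 11.37 to 11.04, 10.83 and 10.85 (-0.47 ± 0.07, limma adjusted p = 0.00114). Its relative Id4 rose from 7.34, 7.71 and 7.30 to 8.39, 8.14 and 8.27 (0.82 ± 0.16, limma adjusted p = 0.0113), a call that ended without DMSO replicate 1 (0.0653) or berberine 3 h replicate 1 (0.068), without the intensity trend (0.0586) and with probe sets averaged (0.161). Inhbb, the activin B subunit, secreted by adipocytes, fell from 9.69, 9.60 and 9.84 to 9.13, 8.92 and 9.04 (-0.68 ± 0.12, limma adjusted p = 0.00413; 0.216 with probe sets averaged). Fzd5, a Wnt receptor, rose from 10.10, 10.09 and 10.33 to 10.62, 10.66 and 10.76 (0.51 ± 0.082, limma adjusted p = 0.00216); its other probe set, near the threshold, changed by 0.0025, and the averaged value was not called (0.639).

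Regulators of transcript stability and splicing moved in both directions. Zfp36l1 and Zfp36 encode proteins that bind AU-rich elements and hasten the decay of cytokine messages. Zfp36l1 rose from 12.50, 12.60 and 12.63 to 13.03, 13.02 and 13.03 (0.45 ± 0.059, limma adjusted p = 0.000396). Zfp36 rose from 8.52, 8.56 and 8.54 to 8.92, 8.97 and 9.32 (0.53 ± 0.11, limma adjusted p = 0.014), less stably: its adjusted p was 0.0653 without DMSO replicate 1 and 0.0796 without berberine 3 h replicate 3. Rc3h1, which encodes Roquin-1, another RNA-binding protein that marks inflammatory messages for decay, fell from 10.56, 10.86 and 10.82 to 10.12, 10.17 and 10.38 (-0.53 ± 0.10, limma adjusted p = 0.0071; 0.0772 without the intensity trend).

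In all, 2 of 22 tested genes of RNA decay rose and 2 fell, against 1.09% and 0.816% of all genes. Of 24 genes of SR proteins, hnRNPs and CLK kinases, 2 rose and 1 fell. The last was Srsf2, an SR protein (-0.33 ± 0.078, limma adjusted p = 0.0369), a call kept in 2 of 6 fits with an array left out (up to 0.176) and ended without the intensity trend (0.158) and with probe sets averaged (0.625). Clk4, a kinase of splicing factors, rose from 9.21, 9.46 and 9.37 to 9.90, 9.92 and 9.89 (0.56 ± 0.10, limma adjusted p = 0.00536; 0.0546 without the intensity trend). Hnrnpa1, an abundant nuclear RNA-binding protein, rose by 0.32 ± 0.058 (limma adjusted p = 0.00479). Both calls ended with probe sets averaged (0.201 and 0.122). Beside these lists, Sfpq, a paraspeckle protein and splicing factor, fell from 11.81, 11.77 and 11.78 to 11.25, 11.18 and 11.28 (-0.55 ± 0.09, limma adjusted p = 0.00251), as did Rbm12, from 10.14, 10.06 and 10.22 to 9.42, 9.57 and 9.60 (-0.61 ± 0.10, limma adjusted p = 0.00185). Sfpq had 5 other kept probe sets, 3 with negative and 2 with positive changes, the furthest at -0.54 and 0.64, and both others of Rbm12 changed by -0.21; none of these was called. With probe sets averaged neither gene was called (0.821 and 0.623), and the Sfpq call ended without the intensity trend (0.0533).

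Further called genes encode secreted or surface proteins. F3, tissue factor, which starts coagulation, read 11.14, 11.18 and 10.87 in DMSO and 11.71, 11.72 and 11.73 at 3 h, a change of 0.66 ± 0.078 (limma adjusted p = 0.000189). Thbs1, the matrix protein thrombospondin-1, read 9.77, 10.11 and 9.54 and 10.59, 10.62 and 10.44 (0.74 ± 0.11, limma adjusted p = 0.00109). Adamts1, a secreted metalloprotease, read 11.73, 12.01 and 11.84 and 12.37, 12.27 and 12.28 (0.45 ± 0.075, limma adjusted p = 0.0032; 0.0586 without the intensity trend), and was the single called member of 28 tested collagen and matrix genes. Of all genes, 1.09% rose. Without DMSO replicate 3 this list had 5 risen members, and without the intensity trend 0.

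Arrdc3, an arrestin-domain protein that binds beta-adrenergic receptors, rose from 9.53, 9.24 and 9.31 to 10.03, 10.29 and 9.96 (0.73 ± 0.11, limma adjusted p = 0.000934), while its relative Txnip, which lowers glucose uptake, read 13.12, 13.20 and 13.32 in DMSO and 13.15, 13.07 and 13.04 at 3 h and was not called (-0.13 ± 0.071, limma adjusted p = 0.454). Pim1, a survival kinase, rose from 7.88, 7.88 and 7.46 to 8.59, 8.47 and 8.51 (0.78 ± 0.15, limma adjusted p = 0.008); its other probe set changed by -0.23 and the averaged value was not called (0.637). Cyp7b1, an oxysterol hydroxylase, rose from 8.00, 8.38 and 8.27 to 8.84, 8.83 and 8.98 (0.67 ± 0.12, limma adjusted p = 0.00423).

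Mt2, a metallothionein that binds zinc and is induced by metals, glucocorticoid and oxidative stress, rose from 13.40, 13.50 and 13.38 to 13.87, 13.76 and 13.68 (0.35 ± 0.062, limma adjusted p = 0.00479; 0.0614 without the intensity trend). It was the 1 called member of 17 tested NRF2 and oxidative stress genes, against 1.90% called of all genes. Hmox1, heme oxygenase 1, read 9.13, 9.12 and 8.80 in DMSO and 9.21, 9.32 and 9.33 at 3 h, groups that did not overlap, and was not called (0.27 ± 0.11, limma adjusted p = 0.251). Less characterised genes rose as far: Gxylt2, a xylosyltransferase, by 0.83 ± 0.14 (limma adjusted p = 0.00364; 0.0629 without the intensity trend) and Nhlrc3 by 0.69 ± 0.08 (limma adjusted p = 0.000171).

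HIF targets outside glycolysis gave the most fallen members of any list: 7 of 25 tested fell, Ddit4 (above) among them, and 0 rose, against 0.816% and 1.09% of all genes, with a median change of -0.23 against 0.02. HIF binds DNA at sites with the core letters ACGTG. On either strand these letters stood in 6 of 14 promoters of the 7 fallen members (42.9%), in 31.2% of those of all genes that fell at 3 h, in 21.4% of those of the genes tested and in 16.6% of all promoters of the RefSeq table. The list was made of known HIF targets and its uncalled members got no share of their own, so the share is no test of what berberine did. Many factors share this core, and a match shows no binding. The promoter of the gene that fell furthest and that of the oxygen sensor Egln3 are shown with the core in capitals.
Ankrd37, chr8:45999851-46000100, - strand: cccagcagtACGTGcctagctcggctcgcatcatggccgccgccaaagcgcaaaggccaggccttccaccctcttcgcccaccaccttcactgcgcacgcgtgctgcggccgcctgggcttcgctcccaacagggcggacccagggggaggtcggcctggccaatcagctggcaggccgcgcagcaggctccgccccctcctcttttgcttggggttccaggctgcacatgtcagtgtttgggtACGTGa
Egln3, chr12:54203875-54204124, - strand: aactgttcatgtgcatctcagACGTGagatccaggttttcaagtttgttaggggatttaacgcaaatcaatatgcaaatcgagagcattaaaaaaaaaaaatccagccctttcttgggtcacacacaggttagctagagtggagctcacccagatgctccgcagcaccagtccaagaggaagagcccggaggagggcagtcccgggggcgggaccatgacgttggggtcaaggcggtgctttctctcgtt

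Ankrd37, a HIF target of unclear function, read 9.28, 8.93 and 9.25 in DMSO and 6.79, 6.84 and 6.33 at 3 h, far below any DMSO array. Its change of -2.50 ± 0.23 was 5.66-fold lower (limma adjusted p = 8.46e-06). Narf, a HIF-responsive gene that encodes a lamin-binding protein, read 9.81, 9.73 and 9.85 in DMSO and 8.65, 8.99 and 8.23 at 3 h, the berberine arrays being more scattered (-1.17 ± 0.17, limma adjusted p = 0.000942). Another Narf probe set fell by 1.44, a dim one at the threshold changed by 0.33, and the average over probe sets was not called (0.153).

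Ak4, a mitochondrial adenylate kinase, read 9.86, 9.36 and 9.78 in DMSO and 9.05, 8.61 and 8.83 at 3 h (-0.84 ± 0.17, limma adjusted p = 0.0104). The Ak4 call ended without DMSO replicate 1 (0.0808) or berberine 3 h replicate 2 (0.0709), without the intensity trend (0.0896) and with probe sets averaged (0.0542). Another Ak4 probe set, above the threshold in both groups, changed by -1.20, and the remaining one was under it at 3 h. Mxi1, an antagonist of MYC, went from 10.97, 10.92 and 10.91 to 10.60, 10.43 and 10.40 (-0.45 ± 0.085, limma adjusted p = 0.00688; 0.0661 without the intensity trend, 0.443 with probe sets averaged). Kdm3a, a histone demethylase, fell by 0.40 ± 0.088 (limma adjusted p = 0.0217) and kept its call in 2 of 6 fits with an array left out (up to 0.113), ending also without the trend (0.143). Vegfa, the vascular growth factor and a textbook HIF target, read 11.26, 10.87 and 10.64 in DMSO and 10.48, 10.49 and 10.71 at 3 h, so the groups overlapped and it was not called (-0.36 ± 0.13, limma adjusted p = 0.176; 0.0364 without DMSO replicate 3).

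The count of fallen HIF targets moved with the setting. It was 5 without DMSO replicate 1, 9 without DMSO replicate 2, 4 without berberine 3 h replicate 2, 3 with probe sets averaged and 2 without the intensity trend, and the direction was downward in every one of these.

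Among 10 HIF subunits and oxygen-sensing hydroxylases, 1 rose and 1 fell, against 1.09% and 0.816% of all genes. Egln3, the prolyl hydroxylase PHD3 and itself a HIF target, read 12.43, 12.00 and 12.51 in DMSO, lowest in replicate 2, and 11.71, 11.72 and 11.49 at 3 h (-0.67 ± 0.11, limma adjusted p = 0.00274; 0.0706 without the intensity trend). Hif1a, whose protein rather than transcript is known to follow oxygen, rose from 12.56, 12.52 and 12.66 to 12.89, 12.87 and 12.91 (0.31 ± 0.06, limma adjusted p = 0.00928). The Hif1a call ended without DMSO replicate 1 (0.0517), without the trend (0.0733) and with probe sets averaged (0.125), while its 2 other probe sets were higher at 3 h without being called, 1 by 0.35 and 1 under the threshold in both groups.

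Of 17 tested genes of glycolysis and of glucose and lactate transport, 2 fell and 0 rose, against 0.816% and 1.09% of all genes. The 2 act at the entry of the route. Slc2a1, the glucose transporter GLUT1, read 12.25, 12.05 and 12.11 in DMSO and 11.63, 11.66 and 11.56 at 3 h (-0.52 ± 0.08, 1.43-fold lower, limma adjusted p = 0.00136). Hk2, hexokinase 2, read 12.47, 12.13 and 12.51 in DMSO and 11.79, 11.79 and 12.01 at 3 h (-0.51 ± 0.091, limma adjusted p = 0.00479; 0.0796 without the intensity trend). Slc2a4, the insulin-regulated transporter GLUT4, read 10.82, 10.54 and 10.82 in DMSO and 10.63, 10.48 and 10.66 at 3 h and was not called (-0.13 ± 0.11, limma adjusted p = 0.664). Without DMSO replicate 2, 4 of the 17 fell.

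Both called genes of glycogen metabolism encode subunits that bring protein phosphatase 1 to glycogen and so favour its synthesis. Ppp1r3b read 10.35, 9.92 and 10.16 in DMSO and 8.97, 8.93 and 9.04 at 3 h (-1.16 ± 0.11, 2.24-fold lower, limma adjusted p = 8.46e-06). Ppp1r3c, the brighter of the pair, read 13.78, 13.60 and 13.89 in DMSO and 12.92, 12.88 and 12.71 at 3 h (-0.92 ± 0.071, 1.89-fold lower, limma adjusted p = 9.37e-07). The other 11 of the 13 tested members, enzymes included, were not called, where 0.816% of all genes fell. The count of 2 was the same in every setting run.

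**Figure D3:**
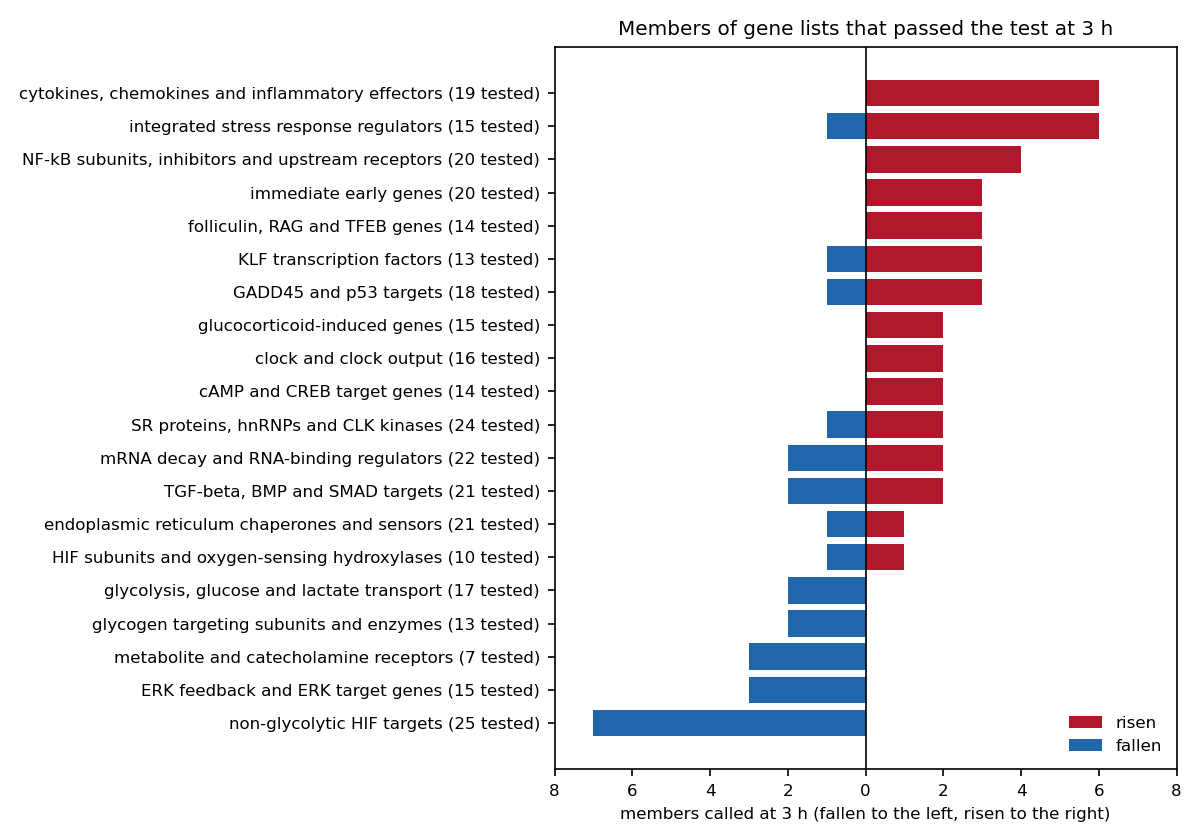
Number of called members (horizontal axis, fallen to the left in blue and risen to the right in red) of the 20 gene lists with at least 2 called members at 3 h, with the number tested in brackets. The 7 fallen HIF targets of 25 tested and the 6 risen members of the cytokine list of 19 are at opposite ends. The integrated stress response list of 15, with 6 risen and 1 fallen, stands next to the cytokine list. The lists were chosen with earlier results of these data known.

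Of 15 tested ERK feedback inhibitors and other ERK target genes, 3 fell and 0 rose, against 0.816% and 1.09% of all genes, and the 3 are feedback inhibitors. Dusp6, a phosphatase of ERK, read 8.05, 7.85 and 7.90 in DMSO and 6.50, 6.96 and 6.70 at 3 h (-1.21 ± 0.23, 2.32-fold lower, limma adjusted p = 0.00806; 0.0637 without DMSO replicate 1). Spry4, a Sprouty inhibitor of receptor signalling, read 9.43, 9.30 and 9.15 in DMSO and 8.21, 8.14 and 8.65 at 3 h, highest in replicate 3 (-0.96 ± 0.16, limma adjusted p = 0.00216; 0.162 with probe sets averaged). Dusp4, a nuclear relative of Dusp6, read 9.30, 9.09 and 9.30 in DMSO and 8.58, 8.49 and 8.60 at 3 h (-0.67 ± 0.14, limma adjusted p = 0.0162). The Dusp4 call ended without DMSO replicate 1 (0.0925) or 3 (0.052) and without berberine 3 h replicate 1 (0.0563) or 2 (0.0796), and also without the intensity trend (0.0661). The count was 1 without DMSO replicate 1, and 2 without berberine 3 h replicate 1 or 2.

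Receptors for metabolites fell in 3 of 7 tested cases, against 0.816% of all genes. Ffar4, the receptor for long-chain fatty acids GPR120, read 9.80, 9.36 and 9.77 in DMSO and 8.71, 8.64 and 8.53 at 3 h (-1.02 ± 0.14, 2.02-fold lower, limma adjusted p = 0.000589). Hcar2, the receptor for niacin and ketone bodies that restrains lipolysis, read 11.05, 10.89 and 11.12 in DMSO and 10.38, 10.40 and 10.35 at 3 h (-0.64 ± 0.10, limma adjusted p = 0.00185). In both genes the groups did not overlap, DMSO replicate 2 being the lowest DMSO array of each, and both calls were kept with any single array left out. Sucnr1, the succinate receptor, changed by -0.55 ± 0.13 (limma adjusted p = 0.0394), a call kept in 1 of 6 fits with an array left out (up to 0.214).

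Single falls came from other groups. Ccne2, a cyclin of S-phase entry, fell from 9.73, 9.62 and 9.57 to 9.01, 8.78 and 8.83 (-0.77 ± 0.11, limma adjusted p = 0.00102) and was the 1 called gene of 25 tested in the cell cycle list. Hspa1b, the inducible heat shock protein HSP70, fell from 11.57, 11.49 and 11.45 to 11.10, 11.10 and 11.14 (-0.39 ± 0.064, limma adjusted p = 0.00216), the 1 called gene of 14 heat shock proteins. A near-identical copy, Hspa1a, can share the probes of Hspa1b. Of all genes tested, 1.90% were called and 0.816% fell. Fbxo9, part of a ubiquitin ligase, fell from 11.12, 10.82 and 11.15 to 10.16, 10.13 and 10.54 (-0.75 ± 0.11, limma adjusted p = 0.0012). Tmem86a, a lysoplasmalogenase, changed by -0.61 ± 0.091 (limma adjusted p = 0.00106) and Hdhd3, a phosphatase-like protein, by -0.63 ± 0.12 (limma adjusted p = 0.00688).

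Several lists of the fat cell's own programme held 0 called members, and are too short to be told apart from the 1.90% called of all genes. Of the 871 tested genes of 52 lists, 76 were called in limma, and 19 lists held 0 called members. The lists were chosen with earlier results of these data known. Among the 19 were 24 AMPK, TSC and mTORC1 genes, 32 complex I subunits, 27 proteasome subunits and 21 genes of cholesterol synthesis. Of fat cell genes they held 20 of fatty acid oxidation, 16 of fatty acid synthesis, 14 adipogenic transcription factors, 14 adipokines and 19 of insulin signalling. The list of metabolite receptors (above), by contrast, had 3 fallen of 7 tested. Over all genes tested, 1654 had an unadjusted p under 0.05. Adipoq, the adiponectin gene, read 15.05, 15.06 and 15.49 in DMSO and 15.58, 15.44 and 15.33 at 3 h, with DMSO replicate 3 inside the berberine range (0.25 ± 0.10, limma adjusted p = 0.239; 0.00835 without that array). Pparg, the master regulator of fat cells, read 13.07, 12.97 and 13.07 in DMSO and 13.26, 13.31 and 13.22 at 3 h, groups that did not overlap, and was not called (0.22 ± 0.067, limma adjusted p = 0.111). Cidec, a lipid droplet protein, was the 1 mature adipocyte marker that fell (-0.29 ± 0.067, limma adjusted p = 0.0365), a call kept in 2 of 6 fits with an array left out (up to 0.163) and ended without the trend (0.158). Pdk4, a PPAR target that shuts off pyruvate oxidation, read 9.00, 9.04 and 8.92 and 9.06, 9.38 and 9.30 and was not called (0.26 ± 0.10, limma adjusted p = 0.248).

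The later berberine arrays were compared with the same 3 DMSO arrays, so their changes against DMSO are given side by side and the difference between 6 and 3 h was tested directly. The genes that had risen at 3 h had median changes of 0.48, 0.50 and 0.57 at 3, 6 and 12 h, and those that had fallen -0.45, -0.60 and -0.76. The difference between 6 h and 3 h passed for 284 of the 12136 genes (2.34%), 145 higher (1.19%) and 139 lower (1.15%) at 6 h. It shares the 3 h arrays with the contrast that called the genes, which leans it towards a return.

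Several risen stress genes were higher again at 6 h. Ddit3 gained a further 1.05 ± 0.06 on the log2 scale between 3 and 6 h (limma adjusted p = 2.55e-08), Trib3 1.16 ± 0.10 (5.97e-06) and Atf4 0.66 ± 0.067 (5.4e-05). Asns, not called at 3 h, gained 0.51 ± 0.084 (0.00392) and was called against DMSO at 6 h, as were 14.2% of all genes (0.62 ± 0.084, limma adjusted p = 0.00011).

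Egln3 and Hcar2 likewise fell further between 3 and 6 h, by 0.67 ± 0.11 (limma adjusted p = 0.00452) and 0.76 ± 0.10 (0.000801). Other genes had a 6 h level that the test did not separate from that of 3 h. For Ankrd37 the difference was 0.15 ± 0.23 (limma adjusted p = 0.822), for Ppp1r3b -0.012 ± 0.11 (0.974), for Cxcl1 -0.011 ± 0.13 (0.981) and for F3 0.031 ± 0.078 (0.904).

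A few rises were smaller at 6 h. Nfkbie was 0.64 ± 0.16 lower at 6 h than at 3 h (limma adjusted p = 0.0492) and was not called against DMSO at 6 h (0.32 ± 0.16, limma adjusted p = 0.225). Jun was 0.28 ± 0.072 lower (0.0483) and Fzd5 0.37 ± 0.082 lower (0.0254). Leaving out any of the 6 arrays of the 2 berberine times ended the call for Nfkbie (adjusted p from 0.0773 to 0.179) and for Jun (0.0544 to 0.194), and for Fzd5 all but berberine 6 h replicate 1 did so (0.0576 to 0.113). Birc3 and Flcn were 0.43 ± 0.11 and 0.39 ± 0.15 lower, which did not pass (limma adjusted p = 0.0506 and 0.205).

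**Figure D4:**
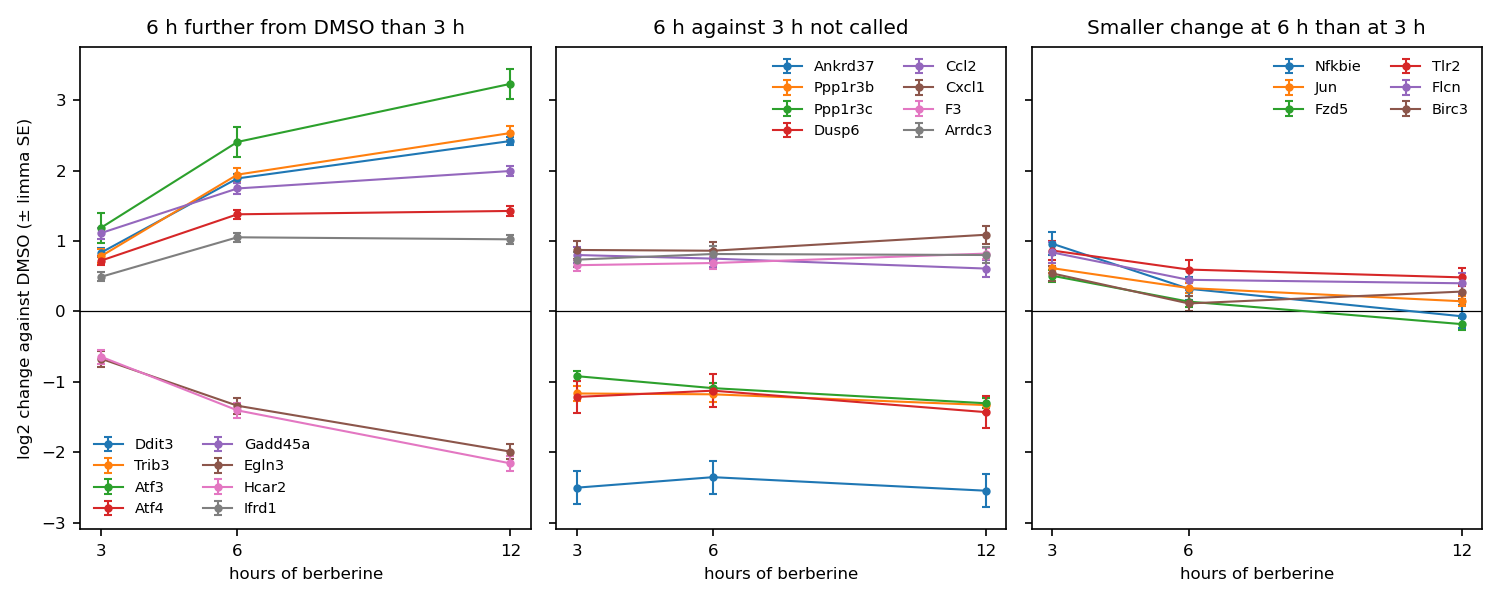
Log2 change against the 3 DMSO arrays (vertical axis, bars are limma's SE) at 3, 6 and 12 h of berberine (horizontal axis) for 22 genes named in the text, 3 arrays a time. In the left panel the genes moved further from DMSO between 3 and 6 h (Trib3 by 1.16), in the middle panel the difference between 3 and 6 h was not called (Ankrd37, 0.15), and in the right panel the change was smaller at 6 h, a difference that passed for Nfkbie, Jun and Fzd5 and did not for Tlr2, Flcn and Birc3.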

How the data were processed

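RNA of 3T3-L1 adipocytes was hybridised to 12 single-colour Affymetrix 3' arrays, 3 a group, per the labels' protocols. The deposited values are log2 signals of 45101 probe sets; the submitters' processing notes name MAS5, which scales each array by 1 factor, and no version of it is given in the sources used here. No scanner output was used here.

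Of the probe sets that are not controls, those at or above the median of all log2 values (5.77, a linear signal of 54.6) on at least 3 of 12 arrays were kept (25053). Names came from the platform annotation through RefSeq's gene table; 34945 probe sets have 1 symbol, 932 several and 9160 none. For each gene the brightest kept probe set on average was used (_x_at only in the absence of another), which gave 12136 genes. Tests were two-sided in limma 3.58.1 (R 4.3.3): group means fitted on all 12 arrays (residual degrees of freedom 8), moderated by eBayes with trend, Benjamini-Hochberg adjustment over all genes tested, and calls at an adjusted p under 0.05. SE is limma's, and folds are ratios of geometric means. The fit was tested on simulated data.

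Named genes were the 30 largest rises and falls, the 10 smallest p, called members of 52 gene lists, the largest moves between 6 and 3 h and a list of single genes, with some left out for space. The members and lists were chosen with earlier results of these data known. Alternatives were other scaling, centring, filters and probe set rules, no trend, the 6 compared arrays alone, a replicate block and leaving out each array; those per gene for 6 h against 3 h were added after seeing the data. Promoters are from RefSeq (GRCm38.p6). Plots used matplotlib 3.10.9 under Python 3.11.15.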

Additional observations from a re-analysis of the deposited data

Results flagged for a closer look

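The 23 genes below are given because their level at 6 h of berberine differed from that at 3 h in limma's direct test (adjusted p under 0.05 over 12136 genes). The contrast shares its 3 h arrays with the comparison against DMSO. Higher at 6 h than at 3 h were Atf4 by 0.66, Ddit3 by 1.05, Atf3 by 1.22, Trib3 by 1.16, Jdp2 by 0.65, Asns by 0.51, Gadd45a by 0.63, Ifrd1 by 0.56 and Hmox1 by 0.79 on the log2 scale (limma adjusted p from 2.55e-08 for Ddit3 to 0.00615 for Atf3). Lower at 6 h were Sfpq (-0.61), Srsf2 (-0.46), Egln3 (-0.67) and Hcar2 (-0.76), with limma adjusted p = 0.0018, 0.00522, 0.00452 and 0.000801. These 13 kept the call with any single array of either time left out.

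The other 10 did not. Chac1 (0.36) and Herpud1 (0.33) were higher at 6 h, and Inhbb (-0.59), Rbm12 (-0.40), Ak4 (-0.75), Fbxo9 (-0.49) and Cidec (-0.35), which had fallen at 3 h, were lower still. Nfkbie (-0.64), Jun (-0.28) and Fzd5 (-0.37), which had risen at 3 h, were lower at 6 h. With an array left out the adjusted p of these 10 reached 0.157 for Chac1, 0.106 for Herpud1, 0.0728 for Inhbb, 0.143 for Rbm12, 0.103 for Ak4, 0.147 for Fbxo9, 0.0619 for Cidec, 0.179 for Nfkbie, 0.194 for Jun and 0.113 for Fzd5. Of the 13 genes above, the call ended with probe sets averaged for Ddit3 (0.899), Sfpq (0.0783) and Srsf2 (0.306), and without the intensity trend for Atf3 (0.0633), Srsf2 (0.0633), Asns (0.0697) and Egln3 (0.0773).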

How the results depend on the processing

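The 231 genes called at 3 h became 93 without the intensity trend and 114 with all kept probe sets of a gene averaged, and ranged from 117 to 266 with 1 array left out. The 284 genes that differed between 6 h and 3 h became 60 without the trend and 146 with probe sets averaged, and ranged from 85 to 229 with 1 array left out. Median centring left the 3 h count at 214 (106 higher, 108 lower, against 132 and 99) and turned the split of the 6 h against 3 h calls from 145 higher and 139 lower to 168 and 76. The labels give the groups the same replicate numbers, but the deviations of same-numbered arrays correlated by only -0.011 to 0.016, so the numbers were not taken to pair samples; with the replicate number as a block the counts were 221 and 275. Of the 78 named genes called at 3 h, 60 kept the call in all 6 fits with an array left out and 33 in every setting run; the call ended for 31 without the trend, 24 with probe sets averaged, 10 with the 6 compared arrays alone, 4 after median centring, 4 with dim values raised to the threshold, 3 with no filter, 3 with the block and 0 with quantile normalization or with all 12 arrays at the threshold. The only named value that changed sign was Asns, which was not called, at -0.013 without DMSO replicate 2; with 1 array left out it ranged from there to 0.17, without DMSO replicate 1. The causes of these shifts were not tested. With 3 arrays a group, the number of arrays limits the precision, and a gene dim in 1 group has only a bound.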
